A study of Homo sapiens with 20 samples.

Results

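The response of bortezomib-resistant ANBL6 myeloma cells, called ANBL6BR here, to 5 µM indirubin-3'-monoxime (I3MO) was measured by RNA sequencing in 4 libraries. The genes described are those with at least 1 FPKM, a fragment count scaled to gene length and to library depth, in 2 or more of the 4 libraries. This rule took 9990 of the 15687 genes tested in the series, out of 60483 listed, and 8364 of the 9990 are protein coding. All 4 libraries reached 1 FPKM for 8567 of these genes, while 347 passed only through the I3MO libraries and 203 only through the DMSO libraries. At the edge of the rule, the second-highest value was 1.0001 FPKM for CYBB, which was taken, and 0.9995 FPKM for ZNG1B, which was not.

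The series covers 5 myeloma models with DMSO, the solvent, or I3MO, in 10 groups of 2 libraries. ANBL6BR is labelled as the ANBL6 line with a bortezomib-resistant genotype, and the groups used are ANBL6BR with DMSO, ANBL6BR with 5 µM I3MO, and, for the difference between the models, ANBL6 labelled wild type with DMSO and with 5 µM I3MO. All 4 groups are labelled as coming from bone marrow, and the RNA was total RNA of cultured cells. The length of treatment, the way resistance was raised and whether ANBL6BR is a single clone are not stated in the labels. No label says that replicate libraries came from separate cultures, so p-values measure the spread between these libraries, which may be technical.

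I3MO is an indirubin derivative, a class of small molecules that inhibit several protein kinases and bind the aryl hydrocarbon receptor. Bortezomib blocks the proteasome, which degrades damaged and misfolded proteins. Myeloma cells derive from plasma cells, which fold and secrete large amounts of antibody in the endoplasmic reticulum (ER) and depend on the unfolded protein response, the set of sensors and transcription factors that raises ER chaperones when folding demand is high. Growth of myeloma cells is also supported by cytokines such as IL-6, which act through STAT3 and are held in check by feedback proteins such as SOCS3.

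Library depth, recovered from the steps between FPKM values, was 14.39 to 15.93 M fragments in ANBL6BR and 12.11 to 14.48 M in ANBL6. The DMSO libraries of ANBL6BR stood apart from each other. They differed by 2-fold or more for 419 of the 9990 genes, 195 higher and 224 lower in DMSO library 2, against 89 genes for the pair of I3MO libraries. Across genes, Pearson's r of log2(FPKM + 1) was 0.953 between the DMSO libraries and 0.987 between the I3MO libraries, and the median absolute difference was 0.22 against 0.09 on the log2 scale. Each library is therefore shown, and results that rest on a DMSO library are given without it. Of 9 plasma cell markers 8 passed the rule, and their summed FPKM was 619 and 237 with DMSO and 445 and 427 with I3MO. The markers of T and NK cells (8), monocytes (7), megakaryocytes (5) and stromal cells (7) had no gene that passed. Single genes of other marker lists passed: HBB of the erythroid list, PECAM1 of the endothelial list and CD79B of the B cell list, none of them called. The sums of these 3 lists ran from 3.33 to 5.99 FPKM, from 9.02 to 27.0 FPKM and from 10.3 to 21.2 FPKM over the 4 libraries. XBP1, a central factor of the unfolded protein response, was listed at 0 in all 4 libraries, for a reason not known here. In RNA from whole cultures, fewer cells of a type and less RNA per cell cannot be told apart.

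With I3MO, 39 of 44 genes for DNA replication and 13 of 17 histone genes fell, and 54 of 72 genes for protein folding in the ER and 39 of 49 of vesicle traffic rose. Smaller parts of other lists moved, with falls for 15 of 27 regulators of cell cycle entry and 7 of 12 cytokine targets and rises for 22 of 44 genes of the amino acid stress response. The rises for ER folding numbered 32 without DMSO library 2, 36 without I3MO library 1 and 33 without I3MO library 2, those for the amino acid stress response 12 without DMSO library 2 and 8 without I3MO library 2, and the falls of cell cycle regulators 10 without I3MO library 1. At a limma adjusted p under 0.05 in the fit that shares the spread of all 20 libraries, 2665 of the 9990 genes changed (26.7%). Of these 1449 rose (14.5%) and 1216 fell (12.2%), and 343 changed 2-fold or more, 166 up and 177 down. The shares of 14.5% and 12.2% are the background for the rises and falls in ANBL6BR of each gene list here and below. The median log2 difference over all 9990 genes was 0.02. Of the genes that changed, 595 rose (5.96%) and 522 fell (5.23%) also without each single ANBL6BR library. The total was 1644 without I3MO library 1 and 1348 without I3MO library 2. When the 4 ANBL6BR libraries were fitted alone with limma, 0 genes passed, with a smallest adjusted p of 0.0689. In that fit 2849 genes had an unadjusted p under 0.05, 2222 of them among the 2665, so the calls rest on the spread shared with the other models.

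**Figure D1:**
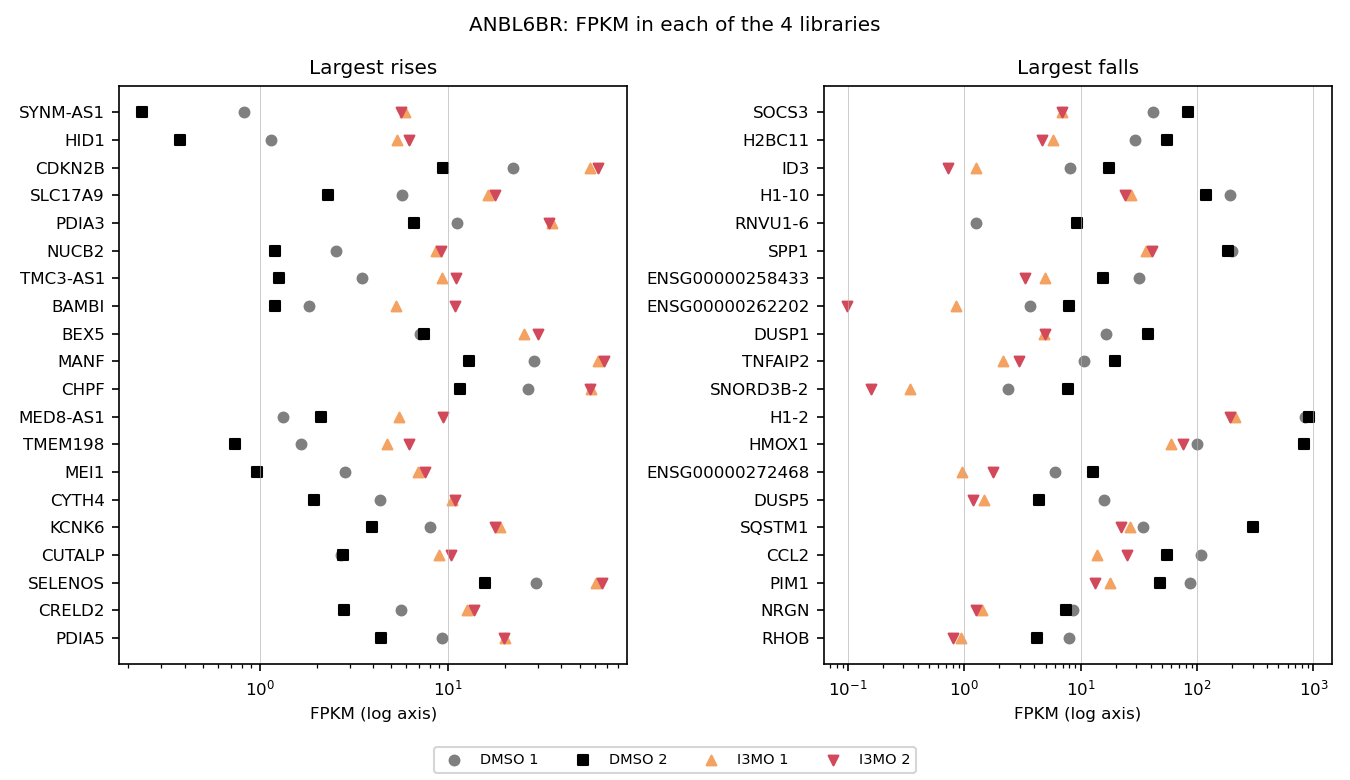
FPKM in each of the 4 ANBL6BR libraries (log axis) for the genes with the largest falls and rises, DMSO and I3MO libraries in different colours. The I3MO points of each gene lie to one side of the DMSO points, which was a condition for choosing it. Values of 0, which RNVU1-6 has in both I3MO libraries, are not drawn.

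SOCS3, the feedback inhibitor of JAK and STAT signalling (17:78356778-78360077 in hg38), had the largest fall on the log2(FPKM + 1) scale among genes with a mean of at least 5 FPKM and groups that do not overlap, while by the ratio of means ID3 fell more, 12.9-fold. It measured 42.0 and 83.2 FPKM with DMSO and 6.98 and 6.92 FPKM with I3MO. Both I3MO libraries lay far below both DMSO libraries, which themselves differed. The mean was 9.01-fold lower, with a log2 difference of -2.92 (SE 0.30, limma adjusted p = 6.4e-05). SPP1, which encodes the secreted matrix protein osteopontin, measured 199 and 185 FPKM with DMSO and 36.7 and 41.4 FPKM with I3MO, and fell 4.92-fold. CCL2, a chemokine that attracts monocytes, measured 108 and 55.6 FPKM against 13.9 and 24.9 FPKM and fell 4.21-fold. The groups do not overlap for either gene, which was a condition for naming the largest falls. Further falls with a log2 difference past -1.8 were those of TNFAIP2 (-2.13), NRGN (-1.96) and RHOB (-1.88), a small GTPase. RHOB passed the rule only through the DMSO libraries, where it is high. RNVU1-6, annotated as a U1 small nuclear RNA variant, measured 1.27 and 9.38 FPKM with DMSO and was listed at 0 in both I3MO libraries. RNVU1-6 also passed the rule only through the DMSO libraries. Small nuclear RNAs have near-identical copies, and it lost its call without DMSO library 2 and with either I3MO library left out.

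Among the rises, HID1, which acts in the formation of secretory granules, measured 1.14 and 0.374 FPKM with DMSO and 5.32 and 6.16 FPKM with I3MO, a 7.58-fold higher mean (log2 difference 1.97, SE 0.17, limma adjusted p = 2.0e-05). CDKN2B, which encodes the CDK4 and CDK6 inhibitor p15 (9:22002903-22009363 in hg38), measured 22.1 and 9.43 FPKM with DMSO and 57.0 and 62.4 FPKM with I3MO. Its mean was 3.78-fold higher (log2 difference 1.96, SE 0.24, limma adjusted p = 2.1e-04). Its neighbour CDKN2A, which encodes p16 and ARF and was looked at after the values were seen, measured 16.8, 10.1, 13.99 and 13.86 FPKM in the same order of libraries and was not called. SLC17A9, a vesicular nucleotide transporter, measured 5.67 and 2.31 FPKM against 16.2 and 17.7 FPKM and rose 4.25-fold. BEX5 was level in the DMSO libraries, at 7.11 and 7.48 FPKM, and measured 25.4 and 30.1 FPKM with I3MO. BAMBI, a decoy receptor of the TGF-beta family, measured 1.82 and 1.202 FPKM against 5.31 and 10.9 FPKM and rose with a log2 difference of 1.80. For HID1, CDKN2B, SLC17A9, BEX5 and BAMBI both I3MO libraries lay above both DMSO libraries, which was a condition for naming the largest rises.

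Other genes among the 20 largest rises were CYTH4 (log2 difference 1.56), an exchange factor of ARF GTPases, the potassium channel gene KCNK6 (1.53), MEI1 (1.59), TMEM198 (1.59) and CHPF (1.64), an enzyme of chondroitin synthesis. The antisense RNA SYNM-AS1 measured 0.827 and 0.238 FPKM with DMSO and 5.92 and 5.59 FPKM with I3MO (log2 difference 2.17, SE 0.17, limma adjusted p = 9.3e-06). It passed the rule only through the I3MO libraries, where it is high. Its partner SYNM, looked at for that reason, measured 3.09 and 1.81 FPKM against 8.30 and 8.30 FPKM and rose with a log2 difference of 1.46. Whether fragments were counted by strand is not given in the sources used here, so fragments of SYNM-AS1 and SYNM cannot be told apart. The same holds for MED8-AS1 (1.61, not called without I3MO library 2) and MED8, which rose with a log2 difference of 0.53, and for TMC3-AS1 (1.80), whose partner TMC3 did not pass the rule. CUTALP, a transcribed pseudogene, measured 2.69, 2.76, 8.90 and 10.4 FPKM and rose with a log2 difference of 1.51. Whether fragments of CUTALP are shared with other genes was not tested.

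Genes of DNA replication fell as a group, and the DMSO libraries were close to each other for them. Of 44 replication genes all passed the rule, 39 fell and 0 rose, with a median log2 difference of -0.76 against 0.02 over all 9990 genes. The median difference between the DMSO libraries was -0.03. For 42 of the 44 genes both I3MO libraries lay below both DMSO libraries, against 28.7% of the 9990 genes. The count was 36 without DMSO library 1 and 36 without DMSO library 2.

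Of 17 genes of the helicase and of origin licensing, 15 fell. MCM5, a subunit of the replicative helicase, measured 24.6 and 25.1 FPKM with DMSO and 6.47 and 7.09 FPKM with I3MO, and its mean was 3.66-fold lower (log2 difference -1.73, SE 0.07, limma adjusted p = 1.2e-07). MCM2, another subunit, measured 18.6 and 18.7 FPKM against 4.95 and 5.59 FPKM and fell 3.54-fold. MCM7 measured 43.3 and 41.5 FPKM against 12.9 and 15.9 FPKM and fell 2.95-fold. CDT1, which loads the helicase at origins, measured 41.4 and 38.8 FPKM against 14.2 and 15.8 FPKM and fell 2.67-fold. In these 4 genes the replicates of each group lay close together and far from the other group. Naming genes of a list by smallest p favours such values, so this adds no support.

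Of 19 genes of polymerases, the sliding clamp and the fork, 17 fell. PCNA, the clamp itself, measured 136 and 132 FPKM with DMSO and 48.7 and 57.0 FPKM with I3MO. Nucleotide synthesis had 7 falls among 8 genes. RRM2, the regulated subunit of ribonucleotide reductase, measured 52.6 and 129 FPKM against 21.7 and 24.5 FPKM, and TYMS, thymidylate synthase, 41.5 and 32.2 FPKM against 16.6 and 18.4 FPKM. The DMSO libraries of RRM2 were more than 2-fold apart, but both lay above the I3MO libraries. PCNA, GINS2, TYMS and RRM2 are named here after their values were seen.

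E2F factors drive many replication genes through sites close to the start of transcription. Promoters from RefSeq (GRCh38.p14) were matched for 7294 of the 9990 genes, and the 250 bases before the start were searched on both strands for TTTCCCGC, TTTGGCGC, TTTCGCGC and TTTGCCGC. These 4 words can overlap on opposite strands and are then counted once per promoter. Of 35 matched replication genes that fell, 11 held such a word (31.4%), and 1 of 4 that were not called. The share was 2.79% of all 35116 promoters in the table, 6.98% of 946 matched genes that fell, 3.52% of 1081 that rose and 4.92% of 5267 not called. Shown are the windows of the 5 genes with the largest falls among those 11, with 20 bases on each side, read in the direction of the gene. Capitals mark the word, which reads GCGGGAAA where it lies on the opposite strand. They are MCM7 at chr7:100101557-100101604 (minus strand), CDT1 at chr16:88803734-88803781 (plus), PCNA at chr20:5126654-5126701 (minus), GINS2 at chr16:85688958-85689005 (minus) and TYMS at chr18:657594-657641 (plus).
MCM7: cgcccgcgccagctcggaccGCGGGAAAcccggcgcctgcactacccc
CDT1: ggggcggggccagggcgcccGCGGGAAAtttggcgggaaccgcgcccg
PCNA: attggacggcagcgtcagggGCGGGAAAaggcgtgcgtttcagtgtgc
GINS2: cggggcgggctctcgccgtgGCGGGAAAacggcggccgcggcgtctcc
TYMS: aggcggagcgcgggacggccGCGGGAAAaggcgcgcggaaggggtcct
MCM7 holds 2 matches, of which 1 is shown. In all 5 windows the word is the same and lies on the strand opposite to the gene. A match describes the letters of the reference and does not show that a factor binds.

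The regulators of cell cycle entry fell in part. Of 27 genes that passed the rule in a list of 29, 15 fell and 2 rose, with a median log2 difference of -0.52. E2F2 measured 105 and 109 FPKM with DMSO and 34.3 and 37.2 FPKM with I3MO, 2.995-fold lower (limma adjusted p = 1.5e-06). E2F1 measured 57.4 and 45.6 FPKM against 16.3 and 23.2 FPKM and fell 2.60-fold. CCNE1, which encodes cyclin E1, the activator of CDK2 at S phase entry, measured 5.41 and 4.89 FPKM against 1.57 and 1.91 FPKM and fell 2.96-fold. For all 3 genes the groups do not overlap. E2F8, a repressor of the family, fell with a log2 difference of -1.15. The promoters of E2F2 and E2F1 also held one of the words above. The rises were CDKN2B and E2F5 (0.47), the latter not called without DMSO library 2 or without I3MO library 1. CDKN1A, which encodes p21, was not called, with 11.7 and 18.9 FPKM against 10.8 and 14.2 FPKM. CDKN1B, which encodes p27, measured 13.6, 11.3, 13.2 and 13.5 FPKM and was not called. CCND2, which encodes cyclin D2, measured 154 and 76.2 FPKM with DMSO and 90.0 and 88.9 FPKM with I3MO, both between the DMSO libraries. CCND1 did not pass the rule, with at most 0.0954 FPKM in a library.

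Of 28 genes of mitosis, 6 fell and 0 rose, with a median of -0.28, against 12.2% and 14.5% of all 9990 genes. NUSAP1, a spindle protein, measured 10.7 and 10.6 FPKM against 5.88 and 5.93 FPKM and fell 1.80-fold, and NUF2, TTK and PRC1 fell 1.58-fold, 1.62-fold and 1.37-fold. MKI67, the proliferation marker Ki-67, measured 15.6 and 17.01 FPKM with DMSO and 15.96 and 14.93 FPKM with I3MO and was not called. CCNB1, cyclin B1, measured 28.2, 27.2, 25.2 and 21.9 FPKM and was not called either. Of 21 genes of homologous recombination and crosslink repair, 5 fell and 1 rose. The falls included EXO1 (log2 difference -0.60) and FANCA (-0.39). The count for mitosis was 3 without I3MO library 1 and 1 without I3MO library 2, and of the mitosis genes named here NUF2, TTK and PRC1 lost their calls when some library was left out. The count for repair was 2 without I3MO library 1, where FANCA lost its call.

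Most of the measured histone genes fell. Of 48 histone genes only 17 passed the rule and 15 were listed at 0, and of the 17, 13 fell and 1, H2BC15, rose with a log2 difference of 0.40. The median of the 17 was -1.33. Most of these mRNAs carry no poly(A) tail, and the step that selected RNA for the libraries is not given in the sources used here. Histone genes have near-identical copies, so the values of single genes are uncertain. All 3 linker histone genes that passed fell. H1-10 measured 193 and 120 FPKM with DMSO and 27.2 and 24.1 FPKM with I3MO, 6.10-fold lower (log2 difference -2.52, SE 0.17, limma adjusted p = 4.0e-06). H1-2 measured 849 and 914 FPKM against 214 and 192 FPKM and fell 4.35-fold. H1-4 was low, at 3.98 and 12.3 FPKM against 1.75 and 0.857 FPKM, and its call was lost without DMSO library 2 and without I3MO library 2. Among core histones, H2BC11 measured 29.5 and 55.2 FPKM against 5.79 and 4.67 FPKM and fell 8.10-fold, and H3C8 measured 3.03 and 2.59 FPKM against 0.591 and 0.443 FPKM and fell 5.44-fold. H3C8 passed the rule only through the DMSO libraries, where it is high. H2BC12 measured 193 and 219 FPKM against 111 and 91.2 FPKM and fell 2.04-fold. It was not called without I3MO library 2, nor was H2BC15. In H1-10, H1-2, H1-4, H2BC11 and H2BC12 both I3MO libraries lay below both DMSO libraries, while the rule alone fixes this for H3C8.

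Genes of protein folding in the ER rose as a group. Of 74 listed genes 72 passed the rule, 54 rose and 0 fell, with a median log2 difference of 0.81. DMSO library 2 was the lower one for most of them, with a median of -0.53 against DMSO library 1. The count of rises was 58 without DMSO library 1 and 32 without DMSO library 2, where 3 genes fell. Without I3MO library 1 it was 36 and without I3MO library 2 it was 33. For 61 of the 72 genes both I3MO libraries lay above both DMSO libraries, against 33.1% of the 9990 genes.

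All 17 chaperone genes that passed rose. HSPA5, which encodes BiP, the main ER chaperone, measured 278 and 280 FPKM with DMSO and 546 and 565 FPKM with I3MO, 1.99-fold higher (log2 difference 0.99, SE 0.15, limma adjusted p = 7.7e-04). HYOU1, a large ER chaperone of the HSP70 family, measured 8.74 and 6.66 FPKM against 21.4 and 25.0 FPKM and rose 3.01-fold. CALR, calreticulin, which binds calcium and glycoproteins, measured 236 and 195 FPKM against 437 and 413 FPKM and rose 1.97-fold. MANF, an ER-resident factor released under stress, measured 28.6 and 12.96 FPKM against 62.2 and 67.5 FPKM and rose 3.12-fold. In HSPA5 and CALR the DMSO libraries were close, and in MANF they were more than 2-fold apart, below both I3MO libraries.

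Of 11 genes of disulfide exchange 6 rose. PDIA3, a thiol oxidoreductase that works with calreticulin, measured 11.1 and 6.59 FPKM with DMSO and 35.8 and 34.2 FPKM with I3MO and rose 3.95-fold (log2 difference 1.91, SE 0.20, limma adjusted p = 6.8e-05). PDIA5 measured 9.27 and 4.42 FPKM against 20.2 and 19.7 FPKM and CRELD2 5.63 and 2.79 FPKM against 12.7 and 13.8 FPKM, with rises of 2.91-fold and 3.14-fold. Translocation into the ER and glycosylation had 25 rises among 29 genes, and ER-associated degradation 6 among 15. OS9, a lectin that marks misfolded glycoproteins for degradation, measured 12.1 and 11.2 FPKM against 20.7 and 20.97 FPKM and rose 1.79-fold, and SELENOS, a selenoprotein of that pathway, measured 29.4 and 15.7 FPKM against 61.1 and 65.4 FPKM and rose 2.80-fold. HERPUD1, another gene of that pathway, was not called, with 20.3 and 9.63 FPKM against 18.2 and 20.7 FPKM. NUCB2, a calcium-binding protein outside these lists, measured 2.53 and 1.203 FPKM against 8.64 and 9.14 FPKM and rose 4.76-fold.

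The ER stress element, CCAAT and CCACG separated by 9 bases, is a site through which the unfolded protein response acts on chaperone genes. It was found in the 250 bases before the start of 5 of 48 matched ER folding genes that rose (10.4%) and of 0 of 14 that were not called. It is rare in the promoter table, with 26 of 35116 promoters (0.074%), and 0 of 32 matched vesicle traffic genes that rose held it. Among all matched genes of the comparison it was held by 9 of 1081 that rose (0.833%), 0 of 946 that fell and 2 of 5267 not called (0.038%). The 5 windows are printed in the direction of the gene from RefSeq (GRCh38.p14), with the element in capitals. They lie at chr22:49918534-49918592 for CRELD2 (plus strand), chr9:125241371-125241429 for HSPA5 (minus), chr19:12938364-12938422 for CALR (plus), chr12:103930196-103930254 for HSP90B1 (plus) and chr5:179698758-179698816 for CANX (plus).
CRELD2: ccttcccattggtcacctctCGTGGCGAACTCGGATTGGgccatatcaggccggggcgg
HSPA5: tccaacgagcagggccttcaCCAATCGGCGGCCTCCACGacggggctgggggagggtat
CALR: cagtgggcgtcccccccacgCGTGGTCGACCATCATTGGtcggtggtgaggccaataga
HSP90B1: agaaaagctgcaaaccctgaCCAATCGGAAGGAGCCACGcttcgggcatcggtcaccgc
CANX: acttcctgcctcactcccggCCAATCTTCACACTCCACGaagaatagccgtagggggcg
The element lies on the strand of the gene in HSPA5, HSP90B1 and CANX and on the other strand in CRELD2 and CALR, and 1 of 2 matches is shown for HSP90B1. HSP90B1, the ER form of HSP90, measured 183 and 129 FPKM with DMSO and 276 and 270 FPKM with I3MO, and CANX, calnexin, 80.0 and 74.4 FPKM against 132 and 120 FPKM. Both rose, with log2 differences of 0.83 and 0.70, and HSP90B1 was not called without DMSO library 2 or without I3MO library 1.

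Of 9 genes for sensors and factors of the unfolded protein response that passed the rule, 5 rose and 0 fell. EIF2AK3, the kinase PERK, measured 6.51 and 5.02 FPKM with DMSO and 10.8 and 12.5 FPKM with I3MO and rose 2.03-fold. ERN1, the kinase and nuclease IRE1, measured 18.4 and 14.6 FPKM against 25.2 and 31.5 FPKM and rose 1.72-fold. CREB3 measured 6.72 and 5.68 FPKM against 15.02 and 15.05 FPKM and rose 2.42-fold, and CREB3L2 measured 10.5 and 5.26 FPKM against 14.9 and 15.4 FPKM and rose 1.92-fold. Both encode membrane-bound transcription factors that are freed in the Golgi. CREB3L2 was called only with all libraries or without DMSO library 1. ATF6, a factor of the same kind, measured 19.99, 21.85, 20.62 and 22.02 FPKM and was not called. The count of 5 was 6 without DMSO library 1 and 3 without each of the other libraries.

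Vesicle traffic between the ER and the Golgi had 39 rises and 1 fall among 49 genes, with a median of 0.71. The count of rises was 40 without DMSO library 1 and 30 without DMSO library 2. SEC24D, a cargo adaptor of the COPII coat, measured 6.31 and 5.49 FPKM with DMSO and 14.8 and 13.7 FPKM with I3MO and rose 2.41-fold (limma adjusted p = 2.5e-05). YIPF2 and the SNARE gene GOSR2 rose 2.03-fold and 1.79-fold. Of 25 genes for COPII and cargo receptors 18 rose, and of 24 genes for COPI, the Golgi and later traffic 21 rose. The fall was that of RAB1B, with a log2 difference of -0.41, called also without DMSO library 2 and in no other fit with a library left out, and its relative RAB1A rose with one of 0.60.

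**Figure D2:**
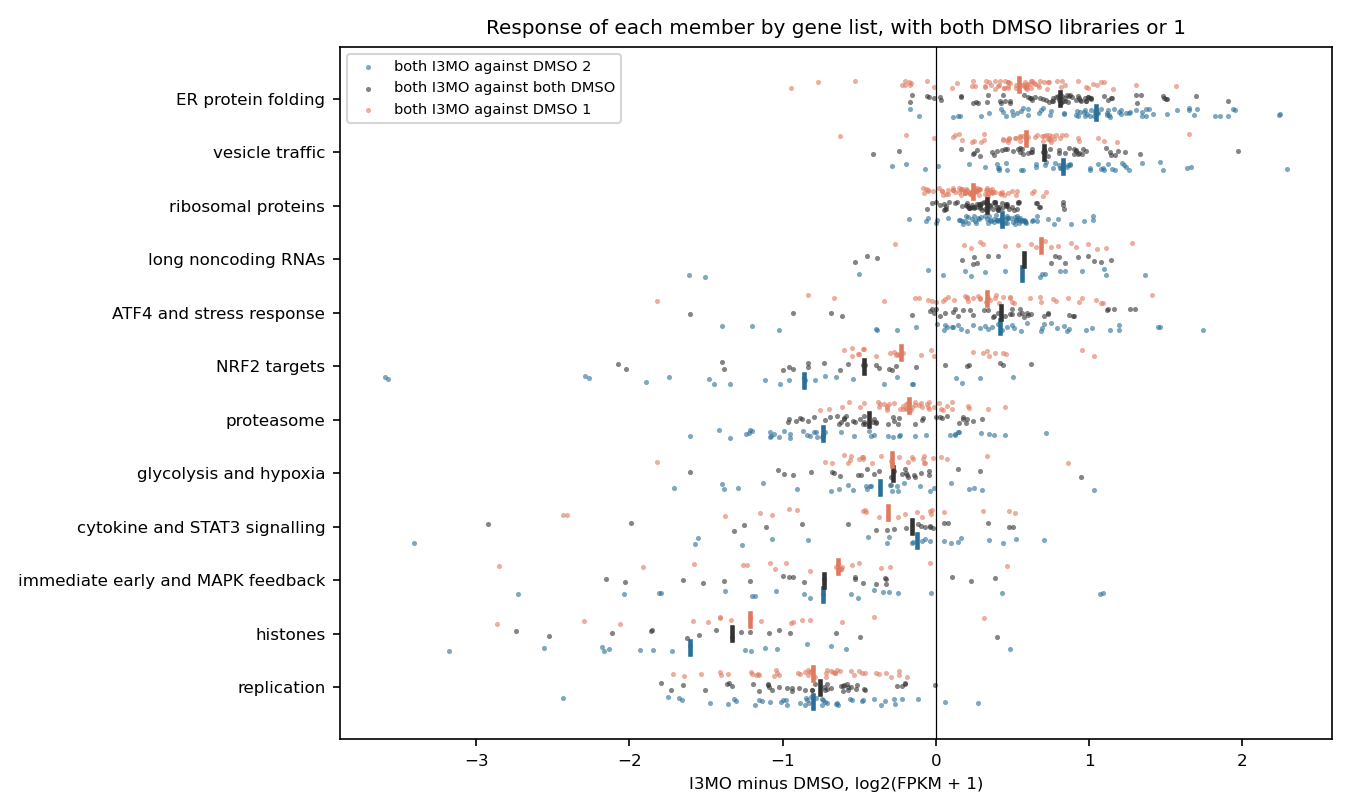
Log2 difference of I3MO against DMSO for each gene of the lists, with both I3MO libraries set against DMSO library 1 (orange), DMSO library 2 (blue) or both (black), with thick ticks at the medians. The median of replication genes is below 0 against either DMSO library, ER folding genes lie mostly higher against DMSO library 2, and proteasome and NRF2 genes lie mostly lower against DMSO library 2.

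The amino acid stress response, run by the transcription factor ATF4, rose in part. Of 44 genes that passed in a list of 55, 22 rose and 3 fell, with a median of 0.43. The site TGATGNAA, bound by ATF4 with CHOP, was in 3 of 17 matched promoters of those that rose (17.6%). It was also in 3 of 17 not called (17.6%), against 3.14% of all promoters, so it did not set the rising genes apart. SESN2, sestrin 2, an inhibitor of mTORC1, measured 51.6 and 60.01 FPKM with DMSO and 118 and 163 FPKM with I3MO and rose 2.51-fold. ADM2, a secreted peptide gene, measured 20 and 15.4 FPKM against 39.8 and 48.1 FPKM and rose 2.48-fold. DDIT3, which encodes the factor CHOP, measured 2.79 and 2.42 FPKM against 4.67 and 9.80 FPKM and rose 2.78-fold. The I3MO values of SESN2, ADM2 and DDIT3 lay above the DMSO values, but the I3MO libraries of DDIT3 were 2-fold apart or more. TRIB3, a pseudokinase induced with CHOP, measured 40.4 and 52.7 FPKM against 75.0 and 99.7 FPKM and rose 1.88-fold. ATF4 itself measured 108 and 95.4 FPKM against 130 and 134 FPKM, with a log2 difference of 0.38 (limma adjusted p = 0.018) that was lost without DMSO library 2 and with either I3MO library left out. The count of 22 fell to 12 without DMSO library 2 and to 8 without I3MO library 2.

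Of the 14 amino acid enzymes on that list 8 rose and 0 fell, with a median of 0.44, and 3 rose without DMSO library 2 and 1 without I3MO library 2. PHGDH, the first enzyme of serine synthesis, measured 40.1 and 33.1 FPKM with DMSO and 34.3 and 40.2 FPKM with I3MO and was not called. ASNS, asparagine synthetase, measured 23.4 and 22.5 FPKM against 29.6 and 27.9 FPKM, with a log2 difference of 0.31 that was not called (limma adjusted p = 0.12). SLC6A9, a glycine transporter, rose 1.73-fold. The falls on the list were those of NDRG1, ATF5 and TRIB1, the last not called without DMSO library 1 or without I3MO library 2. NDRG1, also a hypoxia-responsive gene, measured 10.0 and 7.23 FPKM against 2.16 and 2.10 FPKM and fell 4.05-fold.

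Genes of protein synthesis rose in part. Of 20 cytosolic aminoacyl-tRNA synthetase genes, which charge tRNAs, 6 rose and 0 fell, among them AARS1, CARS1, WARS1 and SARS1 with log2 differences of 0.60, 0.56, 0.73 and 0.61. Of 72 ribosomal protein genes 25 rose and 0 fell, with a median of 0.33. RPL3 measured 48.4 and 36.8 FPKM with DMSO and 72.7 and 79.7 FPKM with I3MO, RPLP0 55.4 and 41.7 FPKM against 84.7 and 87.5 FPKM, and RPL13A 43.8 and 36.1 FPKM against 70.5 and 72.9 FPKM, each with a log2 difference of 0.83. RPL26 rose with one of 0.68. Ribosomal protein genes have many pseudogene copies, so single values are uncertain. The count was 9 without DMSO library 2, 12 without I3MO library 1, 8 without I3MO library 2 and 11 with median-ratio scaling. Of 24 genes of ribosome biogenesis 2 rose, NOLC1 and POLR1B, with log2 differences of 0.38 and 0.40, against 14.5% of all 9990 genes.

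Of 12 targets and feedback genes of STAT3 signalling 7 fell and 0 rose, with a median of -0.63. Of 10 cytokine receptors and kinases 2 rose and 0 fell, and the difference between these counts was not tested. PIM1, a survival kinase induced by STAT factors, measured 86.5 and 47.9 FPKM with DMSO and 17.9 and 13.4 FPKM with I3MO and fell 4.30-fold (log2 difference -1.99, SE 0.21, limma adjusted p = 7.0e-05). PIM2, a kinase on which myeloma cells rely, measured 509 and 471 FPKM against 211 and 180 FPKM and fell 2.50-fold. IRF1, an interferon-regulated factor, measured 13.6 and 12.9 FPKM against 4.44 and 7.04 FPKM and fell 2.31-fold. For PIM1, PIM2, IRF1 and SOCS3 the I3MO libraries lay below both DMSO libraries. STAT3 itself measured 5.87, 5.90, 5.90 and 5.53 FPKM and was not called. IL6R, the IL-6 receptor, measured 33.2 and 16.1 FPKM with DMSO and 15.6 and 15.02 FPKM with I3MO and was not called, and IL6 did not pass the rule. The STAT site TTCCNGGAA was in 0 of 7 matched promoters of the falling targets, against 0.968% of all promoters. For so rare a site, 7 promoters are too few for a count of 0 to tell these genes from others.

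Immediate early genes and brakes of MAP kinase signalling fell too. Of 21 that passed the rule in a list of 40, 13 fell and 0 rose, with a median of -0.73. DUSP1, a phosphatase that switches off MAP kinases, measured 16.6 and 38.0 FPKM with DMSO and 4.81 and 4.98 FPKM with I3MO and fell 5.57-fold. DUSP5, a phosphatase of ERK, measured 15.8 and 4.35 FPKM against 1.47 and 1.19 FPKM and fell 7.58-fold. JUNB, an AP-1 factor, measured 228 and 339 FPKM against 101 and 91.6 FPKM and fell 2.94-fold. The DMSO libraries were 2-fold apart or more for DUSP1 and DUSP5, in opposite directions, and both lay above the I3MO libraries. ZFP36, which destabilises mRNAs, and MAFF fell 3.41-fold and 6.95-fold. EGR1 was not called, with 22.3 and 7.18 FPKM against 25.3 and 3.62 FPKM.

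The ID genes fell too. ID proteins block E-box transcription factors and are induced by BMP signals. ID3 measured 8.10 and 17.5 FPKM with DMSO and 1.25 and 0.728 FPKM with I3MO, 12.9-fold lower (log2 difference -2.72, SE 0.23, limma adjusted p = 1.9e-05). ID2 measured 6.62 and 3.25 FPKM against 0.529 and 0.811 FPKM and fell 7.37-fold. It passed the rule only through the DMSO libraries, where it is high. TCF3, an E protein that ID proteins bind, measured 12.7 and 10.99 FPKM against 5.67 and 5.46 FPKM and fell 2.13-fold. BMP6, a ligand, measured 59.1 and 13.4 FPKM with DMSO and 47.6 and 50.6 FPKM with I3MO, between the DMSO libraries, and was not called. Of 12 genes of this list that passed, 3 fell and 1, BAMBI, rose.

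The proteasome, the target of bortezomib, had a count that turned on the DMSO libraries. Of 46 proteasome genes that passed, 16 fell and 0 rose, with a median of -0.44, but DMSO library 2 was the higher one for 37 of the 46, by a median of 0.55. Without DMSO library 1, 27 fell and 2 rose, and without DMSO library 2, 6 fell and 1 rose. The count of falls was 5 without I3MO library 1 and 4 without I3MO library 2. Of 17 core particle genes 8 fell, of 17 regulatory particle genes 8 fell, and of 12 genes for activators, assembly factors and NRF1 0 were called. PSMB6, a catalytic subunit of the core, measured 47.1 and 69.0 FPKM with DMSO and 28.8 and 28.5 FPKM with I3MO and fell 2.03-fold (limma adjusted p = 0.0026). PSMC3, an ATPase of the regulatory particle, measured 43.1 and 67.1 FPKM against 28.4 and 28.9 FPKM, and PSMB3, of the core, 41.8 and 63.6 FPKM against 29.4 and 24.7 FPKM. For these 3 genes, named for a small p, both DMSO libraries lay above both I3MO libraries, and the calls held without each library. That choice favours such values. PSMB5, which encodes the subunit that bortezomib binds, measured 34.9 and 52.0 FPKM against 30.2 and 31.1 FPKM and was not called (limma adjusted p = 0.079). PSMB2 fell 2.06-fold, with DMSO libraries at 51.3 and 97.7 FPKM, and lost its call without I3MO library 2.

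Genes of the oxidative stress factor NRF2 followed the same libraries. Of 26 that passed 12 fell and 1 rose, with a median of -0.47, and DMSO library 2 was the higher one for 24 of the 26, by a median of 0.75. Without DMSO library 1 18 fell, and without DMSO library 2 3 fell and 3 rose. Without I3MO library 1 4 fell, and without I3MO library 2 2 fell. HMOX1, heme oxygenase 1, measured 99.0 and 825 FPKM with DMSO and 59.7 and 76.0 FPKM with I3MO. Its log2 difference of -2.07 (SE 0.65, limma adjusted p = 0.044) became -0.55 without DMSO library 2. SQSTM1, the autophagy receptor p62, measured 34.2 and 301 FPKM against 26.7 and 22.2 FPKM, and its log2 difference of -2.02 became -0.47 without DMSO library 2. HMOX1 was not called without DMSO library 2, and neither gene was called with either I3MO library left out. For both genes DMSO library 1 lay closer to the I3MO libraries than to DMSO library 2. KEAP1, which marks NRF2 for degradation, was steadier, at 28.0 and 33.8 FPKM against 18.1 and 18.1 FPKM, and fell 1.70-fold. BLVRB, PRDX1 and TALDO1 fell with log2 differences of -0.83, -0.63 and -0.58, and none of these 3 was called without DMSO library 2. The antioxidant response element TGACNNNGC was in 1 of 10 matched promoters of NRF2 genes that fell and in 4 of 8 not called, against 10.9% of all promoters.

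Of 22 heat shock chaperone genes 17 passed the rule. Of these 17, 1 rose, HSPD1 of the mitochondrion, and 1 fell, FKBP4, a partner of HSP90. No ANBL6BR library had a value above 0 for HSPA1A or HSPA1B, for a reason not known here. HSPB1 did not pass either, with at most 0.0723 FPKM. A response of HSPA1A, HSPA1B and HSPB1 could therefore not be measured. DMSO library 2 was the higher one for all 17, and without DMSO library 1 10 fell. HSP90AA1 measured 46.1 and 110 FPKM with DMSO and 37.8 and 34.4 FPKM with I3MO and was not called. UBB, a polyubiquitin gene, fell 1.63-fold. HSPD1 and UBB were not called without I3MO library 1. The 13 mitochondrial protein-coding genes were higher in DMSO library 2. Their summed FPKM was 26709 and 44466 with DMSO and 35142 and 38631 with I3MO, and 0 of them was called in limma.

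Genes of plasma cell identity were the opposite case, lower in DMSO library 2. Of 18 that passed 3 fell and 1 rose, against 12.2% and 14.5% of all 9990 genes. The median of the 18 was -0.42, and that of DMSO library 2 against 1 was -1.12. Without DMSO library 1 7 rose and 2 fell, and without DMSO library 2 1 rose and 12 fell. IRF4, a factor on which myeloma cells depend, measured 265 and 93.2 FPKM with DMSO and 229 and 235 FPKM with I3MO and was not called. TNFRSF17, which encodes the surface antigen BCMA, measured 33.0 and 8.86 FPKM against 10.0 and 5.66 FPKM and was not called, and CD38 measured 4.57 and 1.498 FPKM against 2.81 and 2.85 FPKM. IRF4 and CD38 were above DMSO library 2 and below DMSO library 1, while TNFRSF17 had a log2 difference of -0.20 without DMSO library 1 and -1.99 without DMSO library 2. IGHA1, an antibody heavy chain gene, had close DMSO libraries, at 18.1 and 20.2 FPKM against 9.11 and 10.5 FPKM, and fell 1.95-fold. IGLC3, a light chain gene with near-identical copies, fell 2.37-fold. SDC1, the plasma cell marker CD138, measured 90.3 and 42.0 FPKM against 37.8 and 32.5 FPKM and fell 1.88-fold, and MZB1, an ER chaperone of plasma cells, measured 39.3 and 12.9 FPKM against 66.4 and 63.7 FPKM and rose 2.49-fold. SDC1 and MZB1 lost their calls with either I3MO library left out, and SDC1 also without DMSO library 1.

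**Figure D3:**
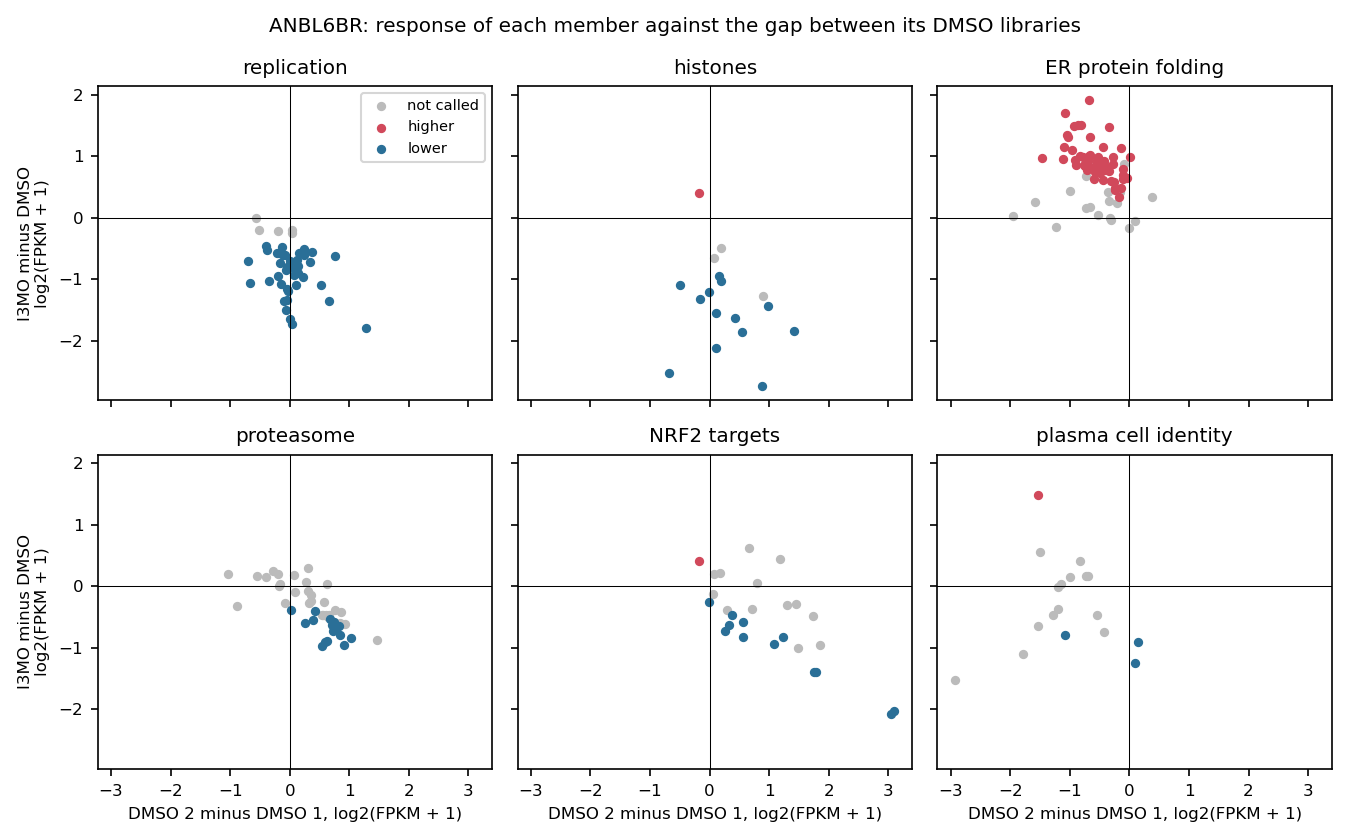
Log2 difference of I3MO against DMSO plotted against the log2 difference of DMSO library 2 against DMSO library 1 for genes of replication, histones, ER protein folding, the proteasome, NRF2 and plasma cell identity, with called rises in red, called falls in blue and other genes in grey. Replication genes cluster near 0 on the horizontal axis, while proteasome and NRF2 genes lie mostly to the right and plasma cell identity genes to the left.

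Single genes with the widest gap between the DMSO libraries included CCR2, a chemokine receptor, at 18.2 and 1.505 FPKM with DMSO and 0.925 and 0.899 FPKM with I3MO. CCR2 passed the rule only through the DMSO libraries, where it is high. Its log2 difference was -1.86 (limma adjusted p = 0.049), -3.33 without DMSO library 2 and -0.39 without DMSO library 1, and it was not called with either I3MO library left out. GPRC5D, a surface antigen of plasma cells, measured 33.5 and 3.56 FPKM against 4.10 and 2.71 FPKM, and CRYBB1 measured 107 and 16.9 FPKM against 51.5 and 45.7 FPKM, with neither called. MALAT1, a nuclear noncoding RNA, went the other way, with 3.45 and 21.2 FPKM against 5.89 and 6.68 FPKM. Of the 419 genes with DMSO libraries 2-fold apart or more, 192 had both I3MO libraries between them and 76 were called. MYC measured 10.9 and 2.55 FPKM with DMSO and 6.26 and 7.10 FPKM with I3MO and was not called, and its log2 difference of 0.24 was -0.64 without DMSO library 2.

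Of 24 genes of the BCL2 family and of p53 targets 2 rose and 6 fell, against 14.5% and 12.2% of all 9990 genes. BMF, a pro-apoptotic BH3-only gene, measured 3.14 and 2.92 FPKM with DMSO and 0.356 and 0.388 FPKM with I3MO and fell 8.14-fold (log2 difference -1.55, SE 0.08, limma adjusted p = 5.1e-07). BIK, another BH3-only gene, measured 1.89 and 1.03 FPKM against 0.358 and 0.463 FPKM and fell 3.55-fold. BMF and BIK passed the rule only through the DMSO libraries, where they are high. GADD45B, a stress sensor, measured 25.1 and 10.0 FPKM against 3.91 and 4.57 FPKM and fell 4.14-fold, and BTG2, an antiproliferative p53 target, fell 1.95-fold, a call lost without I3MO library 2. The I3MO libraries of GADD45B and BTG2 lay below both DMSO libraries, while the rule alone fixes this for BMF and BIK. PMAIP1, which encodes NOXA, rose with a log2 difference of 0.51 that was not called without DMSO library 2 or without I3MO library 2. The count of falls was 3 without I3MO library 2. MCL1, the anti-apoptotic gene, measured 83.3, 64.5, 60.7 and 59.96 FPKM and was not called.

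Metabolic genes moved in both directions, beside rises of 14.5% and falls of 12.2% over all 9990 genes. Of 16 glycolysis genes 9 fell and 1 rose. TPI1, triose phosphate isomerase, measured 36.5 and 34.0 FPKM with DMSO and 22.6 and 22.3 FPKM with I3MO and fell 1.57-fold, and ALDOC, an aldolase, fell 1.52-fold. HK2, hexokinase 2, was the rise, at 9.08 and 7.95 FPKM against 16.8 and 17.9 FPKM, 2.03-fold higher. Of 31 genes of sterol and fatty acid synthesis 8 rose and 1 fell, with 15 rises without DMSO library 1, 3 without DMSO library 2, 5 without I3MO library 1 and 1 without I3MO library 2. SQLE, squalene epoxidase, measured 21.2 and 7.99 FPKM against 34.9 and 35.4 FPKM and rose 2.41-fold. SREBF1, a regulator of that pathway, was the fall, at 7.49 and 7.88 FPKM against 3.89 and 3.61 FPKM, 2.05-fold lower. Of 32 nuclear genes of the respiratory chain 3 fell and 0 rose, NDUFA4, NDUFB8 and SDHA, by 1.49-fold, 1.49-fold and 1.32-fold, and without I3MO library 2 only NDUFA4 was called.

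Of 11 genes of the aryl hydrocarbon receptor 3 passed the rule. AHRR, the repressor of the aryl hydrocarbon receptor, was low, at 0.703 and 0.493 FPKM with DMSO and 1.11 and 1.42 FPKM with I3MO, and rose with a log2 difference of 0.50. It passed the rule only through the I3MO libraries, where it is high. AHR, the gene of the receptor itself, did not pass the rule, with at most 0.022 FPKM in a library. CYP1A1, the classical target of that receptor, did not pass the rule, with at most 0.0265 FPKM, and CYP1B1 was listed at 0 in all 4 libraries. TIPARP, another target, measured 1.58, 0.999, 1.32 and 1.16 FPKM and was not called. ABCB1, the drug efflux pump gene, did not pass the rule, with at most 0.028 FPKM. HEXIM1, the inhibitor of the elongation kinase P-TEFb, measured 25.3 and 41.8 FPKM against 13.9 and 12.8 FPKM and fell 2.52-fold, while CDK9, the kinase, was not called at 12.9, 11.7, 13.6 and 15.4 FPKM. MYCL, a MYC relative that also passed only through the I3MO libraries, rose from a low level, 0.623 and 0.447 FPKM against 1.13 and 1.61 FPKM. USP7, a deubiquitinase, measured 9.93, 10.8, 9.76 and 8.93 FPKM and was not called.

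The test of the difference between models asked where ANBL6BR responded otherwise than ANBL6 at the same 5 µM. The comparisons share no library. A difference was called for 1070 of the 9990 genes (10.7%), 518 more positive (5.19%) and 552 more negative (5.53%) in ANBL6BR. In ANBL6 820 of the 9990 genes were called (8.21%). Of the genes called in ANBL6BR and in ANBL6, 308 moved the same way, 163 up and 145 down, which is 11.6% of the calls in ANBL6BR and 37.6% of those in ANBL6. Another 45 moved in opposite directions, 29 of them lower in ANBL6BR, and the difference was called for all 45. The count of 1070 was 357 with the replicate number as a block, and from 429 to 1903 with a library left out. It was 429 without ANBL6 DMSO library 1, 480 without ANBL6 DMSO library 2, 434 without ANBL6 I3MO library 2, 603 without ANBL6BR I3MO library 1, 449 without ANBL6BR I3MO library 2 and 1903 without ANBL6BR DMSO library 1. Genes listed above 0 numbered 32668 and 28419 in the ANBL6 I3MO libraries, against 22138 and 22710 with DMSO, and 20975 to 22110 in ANBL6BR, and the part of this in the difference was not tested.

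**Figure D4:**
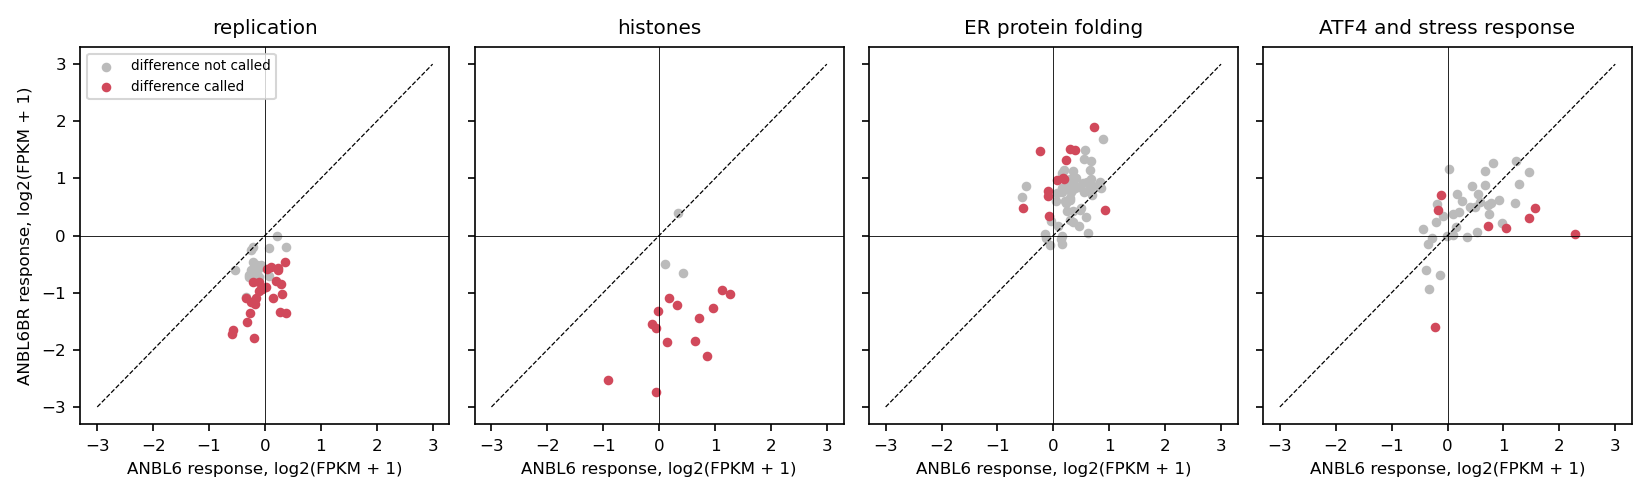
Log2 difference of I3MO against DMSO in ANBL6 (horizontal axis) and ANBL6BR (vertical axis), 1 point per gene of the replication, histone, ER protein folding and ATF4 lists, with called differences in red and a dashed line where the responses are equal. The red points of replication (26) and histones (14) lie below the line, those of ER protein folding lie 12 above and 1 below, and those of the ATF4 list lie 2 above and 6 below.

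Replication genes fell more in ANBL6BR. The difference was negative for 26 of the 44 and positive for 0, against 5.53% and 5.19% of all 9990 genes. In ANBL6 3 fell and 1 rose, close to the 8.21% of all 9990 genes called there in either direction. These shares are also the background for histones. MCM5 had a log2 difference of -0.58 in ANBL6 and -1.73 in ANBL6BR, which differ by -1.15 (limma adjusted p = 8.1e-05). CDT1 rose with 0.38 in ANBL6, from 21.03 and 22.66 FPKM to 27.4 and 30.2 FPKM, and fell with -1.36 in ANBL6BR. CCNE1 rose with 0.63 in ANBL6 and fell with -1.17 in ANBL6BR. Of the 17 histone genes 14 had a more negative response in ANBL6BR (9 without ANBL6 DMSO library 1), and in ANBL6 4 rose and 1 fell. H1-2 measured 23.4 and 23.8 FPKM with DMSO and 33.0 and 57.6 FPKM with I3MO in ANBL6, where it rose with 0.86, and the responses differ by -2.97. H1-10 fell in both models, with -0.92 in ANBL6 and -2.52 in ANBL6BR.

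ER folding genes had a more positive response in ANBL6BR for 12 of the 72 and a more negative one for 1, against 5.19% and 5.53% of all 9990 genes. HYOU1 was not called in ANBL6, with 6.69 and 5.90 FPKM against 5.84 and 4.61 FPKM, and the responses differ by 1.71 (limma adjusted p = 2.7e-04). CALR and HSPA5 differ by 0.91 and 0.80. The amino acid stress genes went the other way for some members, with a more negative response in ANBL6BR for 6 of the 44. A more positive one was called for 2, which is close to the share over all genes. PHGDH measured 2.35 and 1.81 FPKM with DMSO and 11.7 and 16.5 FPKM with I3MO in ANBL6, where it rose with 2.28, and the responses differ by -2.25. ASNS rose with 1.46 in ANBL6 and differs by -1.14. For both genes the DMSO level of ANBL6BR already lay above the I3MO level of ANBL6. SESN2 rose in both models, with 1.23 and 1.30, and its difference of 0.07 was not called.

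The DMSO level also differed for other genes with a called difference. CDKN2B measured 0.332 and 0.308 FPKM with DMSO and 0.255 and 0.212 FPKM with I3MO in ANBL6, and its responses differ by 2.06. CCL2 and IGHA1 fell in ANBL6BR and were at or near 0 in ANBL6, with at most 0.0205 FPKM for CCL2 and 0 for IGHA1, so no fall could be measured there. TXNIP, a regulator of thioredoxin and glucose uptake, was not called in ANBL6BR, with 34.2, 54.8, 67.0 and 40.7 FPKM, and fell with -1.45 in ANBL6. HMOX1 was not called in ANBL6, with 25.99 and 43.82 FPKM against 103 and 158 FPKM. Its difference of -3.96 includes the gap between the DMSO libraries of ANBL6BR given above. SOCS3 fell in both models, with -1.84 in ANBL6 and -2.92 in ANBL6BR, and the difference of -1.08 was not called (limma adjusted p = 0.14).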

How the data were processed

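Bulk RNA sequencing of 20 libraries (5 models, DMSO or I3MO, 2 libraries a group) was used, and groups come from the sample labels. The authors deposited FPKM per gene, and the 20 single-library tables hold the values of the table for the whole series. Per the submitters' processing notes, reads were trimmed with Trimmomatic (0.32 and 0.36 are named) and aligned to hg38 with STAR, and SAMtools was used. The counting tool and annotation are not given in the sources used here. FPKM steps gave whole fragments (within 0.02) for 100% of tested single-exon values. The gene length in use is the sum over the exons of all transcripts, which understates genes with many transcripts against other genes. The order of levels between genes is therefore not compared. Gene positions and types are from GENCODE 29. Symbols are from a reference list of gene names, and from GENCODE 29 where that list has none.

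Genes with at least 1 FPKM in 2 or more of the 20 libraries (15687) were fitted as log2(FPKM + 1) with limma 3.58.1 in R 4.3.3 (trend on, 1 mean per group, 10 residual degrees of freedom), and two-sided p-values were adjusted by Benjamini-Hochberg over all 15687, with a threshold of 0.05. Fold changes are ratios of mean FPKM, and log2 differences are on the log2(FPKM + 1) scale, which understates changes of low genes. On simulated data for 15687 genes, the comparison in ANBL6BR recovered 81 of 102 genes changed 2-fold (79.4%) and 98 of 98 changed 4-fold (100%). The simulation used normal values with the same spread of a gene in every group, and genes of low level were not changed. It did not hold the wider gap between the DMSO libraries of ANBL6BR, so these shares do not show how calls fare with that gap. Tables and plots used Python 3.11.15.

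The genes named are the 20 largest rises and 20 largest falls with a mean of at least 5 FPKM and groups that do not overlap, 4 per list by smallest p, 8 each way for the difference from ANBL6 and for the gap between DMSO libraries, 5 each way for noncoding genes, and a fixed set. Others are said to be named after their values were seen, or are list members given as examples. Groups that do not overlap were required of the largest rises and falls. A small p favours them too, so they add no support for genes named in these ways. Some genes that the rule names are not reported here. The members and lists were chosen with earlier results of these data known. Alternatives were a pseudocount of 0.1, no filter, median-ratio scaling, a replicate block, the 4 or 8 libraries alone, and leaving out each library.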

Additional observations from a re-analysis of the deposited data

Results flagged for a closer look

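The response to I3MO differed between ANBL6BR and ANBL6 by the test of the difference itself for 1070 of the 9990 genes, and the values below are log2 responses in ANBL6BR minus those in ANBL6. Among the 8 most positive differences were MT-TT (2.50), a mitochondrial tRNA, SYNM-AS1 (2.32), CDKN2B (2.06), SLC17A9 (1.86), TXNIP (1.72), HYOU1 (1.71), MED8-AS1 (1.70) and CYTH4 (1.61). MT-TT and TXNIP were not called in ANBL6BR, and their difference comes with a fall in ANBL6. SYNM-AS1 passed the rule only through the I3MO libraries, and SNORD3B-2, named next, only through the DMSO libraries. The 8 most negative were HMOX1 (-3.96), H1-2 (-2.97), H2BC11 (-2.68), SNORD3B-2 (-2.57), H1-4 (-2.48), ENSG00000272468 (-2.32), H2BC12 (-2.30) and ID3 (-2.30). Of these, 4 are histone genes, and ENSG00000272468, a noncoding RNA at 6:27122657-27123221 in hg38, lies next to H2BC11 at 6:27125897-27132750. Some of the genes were low in ANBL6, where SYNM-AS1, CDKN2B, ENSG00000272468 and SNORD3B-2 had at most 0.236, 0.332, 0.878 and 2.195 FPKM. A fall of these genes could hardly be measured there, and their difference is mainly the response in ANBL6BR.

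Other named genes whose response differed were H1-10 (-1.61), SPP1 (-1.28), MCM5 (-1.15), MCM2 (-1.07), ASNS (-1.14) and PHGDH (-2.25) on the negative side. On the positive side were NUCB2 (1.25), PDIA3 (1.18), HID1 (1.10), CALR (0.91), AHRR (0.86), HSPA5 (0.80) and MYCL (0.58). AHRR rose in ANBL6BR and fell in ANBL6, with log2 differences of 0.50 and -0.35.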

How the results depend on the processing

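Precision is limited by 2 libraries a group and by the gap between the DMSO libraries of ANBL6BR. With the 4 ANBL6BR libraries alone the counts of changed, risen and fallen genes and of every gene list were 0. Same-numbered libraries share a number and no stated pairing (r of their deviations across genes 0.05). With a replicate block 1907 genes were called, 1848 of them among the 2665, and the block left 14 rises for ATF4, 8 falls for the proteasome and 4 for NRF2. It left 357 differences from ANBL6 (149 positive, 208 negative), 16 of them negative for replication and 9 for histones. With the 8 ANBL6 and ANBL6BR libraries alone the differences numbered 182 (76 positive, 106 negative; replication 14, histones 5). A pseudocount of 0.1 gave 312 positive differences. Without a filter the proteasome had 8 falls, NRF2 targets 5 and ribosomal proteins 16 rises, and median-ratio scaling gave 11 ribosomal rises. The share of rises among calls was 54.4%, 47.9% with median-ratio scaling and 52.3% with a pseudocount of 0.1.

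With each library left out in turn, changed genes ran from 1348 to 3093 (rises 689 to 1754, falls 659 to 1339). Differences from ANBL6 ran from 429 to 1903 (positive 183 to 1001, negative 245 to 902; histones 9 to 13). List counts ran from 32 to 58 for ER folding, 3 to 6 for the unfolded protein response, 8 to 20 for ATF4, 4 to 27 for the proteasome, 2 to 18 for NRF2 and 8 to 29 for ribosomal proteins.

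Without 1 DMSO library 5 named genes that were not called with all libraries were called with the opposite sign: CRYBB1 (range of log2 differences -1.13 to 1.47), ITGB8-AS1 (-1.40 to 0.74), PTGDR (-1.60 to 0.54), MIR324 (-1.07 to 0.9998) and MYC (-0.64 to 1.11). With all libraries 148 named genes were called. When some library was left out, 41 named genes lost the call or were called with the opposite sign, and these 41 include the 5 above. Of 90 named differences from ANBL6, 67 lost the call under some alternative and 0 changed direction.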

Other observations

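Of 18 long noncoding RNAs that passed in a list of 20, many of them hosts of small nucleolar RNAs, 10 rose and 1 fell, with a median log2 difference of 0.58. GAS5 measured 1.94 and 3.38 FPKM with DMSO and 5.67 and 6.68 FPKM with I3MO and rose 2.32-fold. ZFAS1 measured 2.13 and 2.49 FPKM against 5.19 and 6.39 FPKM and rose 2.51-fold. SNHG7 and SNHG29 rose 2.36-fold and 2.15-fold, and for each of these 4 genes both I3MO libraries lay above both DMSO libraries. The count of rises was 11 without DMSO library 1 and 9 without DMSO library 2.

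Polyamine genes moved in both directions. Of 9 that passed, 2 rose and 3 fell. Over all 9990 genes 14.5% rose and 12.2% fell, the background for each list of this paragraph. SRM, spermidine synthase, measured 139 and 92.2 FPKM with DMSO and 204 and 181 FPKM with I3MO and rose 1.67-fold, while SMS, spermine synthase, measured 4.45 and 5.23 FPKM against 2.39 and 2.35 FPKM and fell 2.04-fold. SMOX, spermine oxidase, measured 8.53 and 8.61 FPKM against 13.02 and 15.57 FPKM and rose 1.67-fold. Of 16 genes of MHC class I and interferon, 1 rose and 3 fell. The falls numbered 7 without DMSO library 2 and 1 with either I3MO library left out, and the rises 3 without DMSO library 1. ISG15, a ubiquitin-like interferon target, measured 4.40 and 3.56 FPKM with DMSO and 1.33 and 1.11 FPKM with I3MO and fell 3.27-fold, and ERAP1, which trims peptides for MHC class I, rose 2.18-fold. ISG15 had a log2 difference of 0.81 in ANBL6 and -1.16 in ANBL6BR, and the difference of -1.97 was called. Of 16 NF-kB genes 1 rose and 1 fell, NFKBIE and NFKBIA, both inhibitors, with log2 differences of 0.63 and -0.61. NFKBIE was not called without I3MO library 2, and NFKBIA was not without DMSO library 2 or without I3MO library 1.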
